A study of Mus musculus with 6 samples.

Results

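Core and linker histone genes were compared between Hsf5 knockout and control testes of mice at postnatal day 16. Their members were the protein-coding rows of the gene table whose symbols begin with the histone stems H1f, H2a, H2b, H3c, H3f, H4c, H4f or Macroh2a, with H2ax left out. They came to 67 of 29333 genes. By symbol, 2 were replacement linker genes, 5 replication-dependent linker genes, 44 replication-dependent core genes, 7 replacement core genes and 9 variants of the testis and germ line. The knockout animals were Hsf5-/-. Controls are wild type by their labels but wild type or Hsf5+/- by the design text, so the group may mix genotypes. The sources used here do not give the strain, the form of the Hsf5 allele or whether each sample is a separate animal. The p-values therefore cover only the spread between the samples analysed, which may be technical. Whole testis was sequenced. Of 3 samples labelled per group, 2 were analysed, and they are named control 1, control 2, knockout 1 and knockout 3.

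Core histones H2A, H2B, H3 and H4 form the nucleosome, and linker histone H1 binds where DNA enters and leaves it. Replication-dependent histone genes are clustered and are transcribed mainly in S phase. Their messages typically end in a stem-loop bound by SLBP in place of a poly(A) tail, so a library made from polyadenylated RNA holds few of them. Replacement histones such as H3.3 and H2A.Z are made outside S phase from polyadenylated messages. The male germ line adds variants of its own through meiosis, and spermatids later exchange most histones for protamines.

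The stem-loop is shown first because its presence in the annotated transcripts differs between the classes. It was searched in GENCODE M21 transcripts (GRCm38) as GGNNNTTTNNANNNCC on the transcript's strand, with 6 of 6 base pairs between the arms and G-U pairs counted. Six-letter arms are in capitals, and the lines give the transcript 5′ to 3′ with T for U, for H1f2 (the replication-dependent linker gene with the highest level), H2aw (called lower), H4c3 and H4c9 (H4 genes) and the testis variants H1f6 and H2bw2.
H1f2, chr13:23739507-23739532, plus strand: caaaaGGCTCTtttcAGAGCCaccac
H2aw, chr11:58955167-58955192, plus strand: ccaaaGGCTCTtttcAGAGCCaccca
H4c3, chr13:23698084-23698109, minus strand: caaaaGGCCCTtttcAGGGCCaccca
H4c9, chr13:22040961-22040986, minus strand: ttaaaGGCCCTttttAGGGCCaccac
H1f6, chr13:23696520-23696545, plus strand: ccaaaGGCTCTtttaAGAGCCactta
H2bw2, chrX:136928162-136928187, plus strand: tcaaaGGCTCTtttcAGAGCCaccac

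A stem-loop was found in 36 of the 67 members, against 124 of 21951 protein-coding genes (0.565%). It was present in 31 of 44 replication-dependent core genes, 3 of 5 replication-dependent linker genes and 2 of 9 testis variants, and in none of the 9 replacement genes. Some members without one have short annotated transcripts, such as H4c12 (312 bases), H2bc13 (381 bases) and H3f4 (411 bases). A stem-loop past such an annotated end could not be found, so absence there need not be a trait of the gene. The form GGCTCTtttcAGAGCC was the commonest, in 19 members of the H1, H2A, H2B and H3 families. Every H4 gene with a stem-loop had other arms. The form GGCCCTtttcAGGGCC was held by 7 H4 genes, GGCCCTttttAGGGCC by H4c9 and H4c14, and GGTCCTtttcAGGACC by H4c11 alone. Many annotated transcripts ran on past the loop. Among the 12 members with a stem-loop that had enough reads to be tested, the longest stretch after it had a median of 353.5 bases. Among the 24 with too few reads it had a median of 153 bases.

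Depth ran from 16209093 to 18557898 recovered reads per library. Hsf5 itself had normalised read counts (reads divided by 1 size factor per library) of 2541 and 3147 in the controls and of 1926 and 1602 in the knockouts. That is a log2 fold change of -0.69 (limma Benjamini-Hochberg adjusted p = 0.00716). A gene-level count does not check which part of the gene was deleted. All 12 pachytene spermatocyte markers fell (median log2 change -3.75). Their summed level was 55171 and 82067 in the controls against 19705 and 15658 in the knockouts. Those markers were also higher in control 2 than in control 1, by a median of 1.08 on the log2 scale. Of all genes tested, 13.5% fell and 3.28% rose. None of the 15 Sertoli markers fell and 5 rose (summed level 122562 to 128311 in controls, 143547 to 150977 in knockouts). Of 10 genes listed as spermatogonial markers 3 rose and 1, Ddx4, fell (log2 fold change -0.78). The other 9 all had positive values. The part of these shifts in cell makeup in the histone results was not tested, and in whole testis fewer cells of a type and less RNA per cell cannot be told apart.

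Histone genes passed the test at a share close to that of all genes. With a mean normalised count of at least 10, 27 of the 67 members were tested, and 40 were too low. Of the 27, 3 fell (H2bc21, H2aw and H3f3b) and 1 rose (H2az2), by limma with a Benjamini-Hochberg adjusted p under 0.05. That is 14.8% of the members tested, beside 16.8% of all 17480 genes tested (13.5% lower, 3.28% higher). The members' median log2 fold change was 0.16, beside 0.01 for all genes tested. Both knockout libraries lay above both controls for 13 members and below them for 7 (20 of 27), where 61.7% of all genes did one or the other (29.8% above, 31.9% below).

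**Figure D1:**
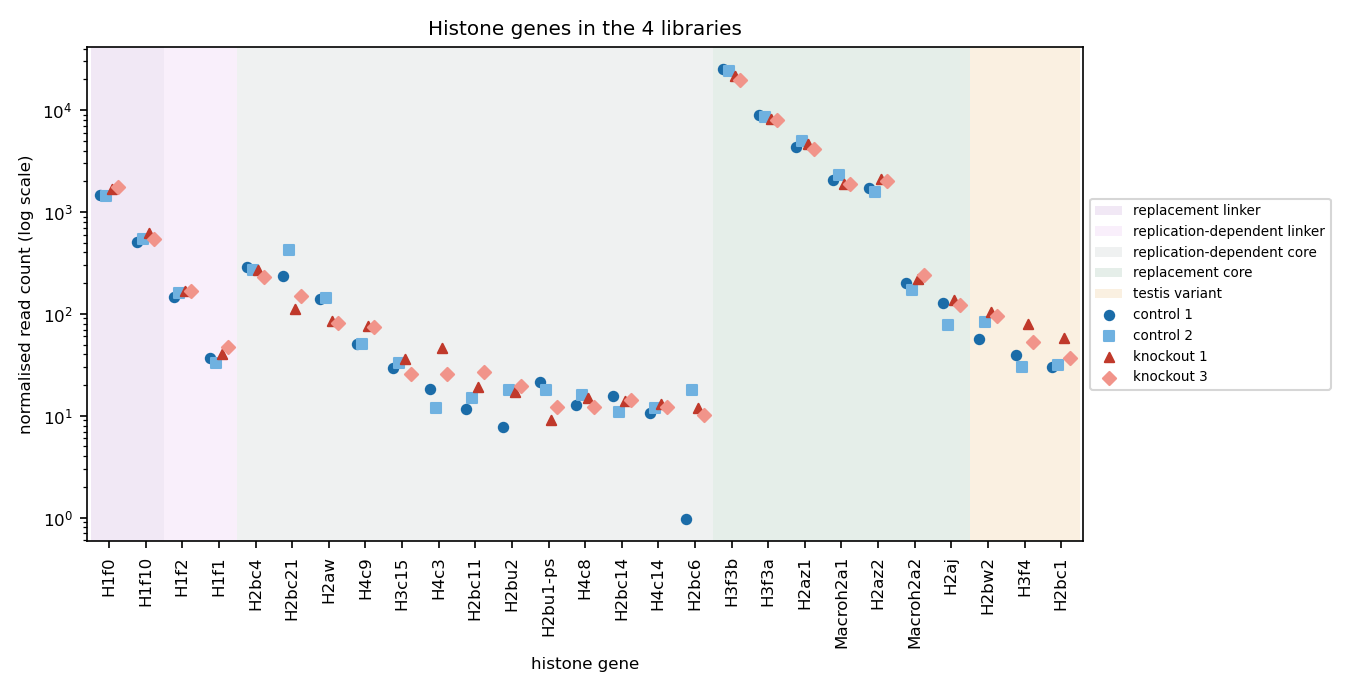
Normalised read count (log axis) of the 27 tested histone genes in each of the 4 libraries, ordered by class and then by mean. H3f3b sits highest, near 25014 in control 1, and most replication-dependent core genes lie below 100 in all libraries.

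Levels per length differed between the classes, with overlap. Per kb of exonic sequence, the median of the mean normalised count was 1135 for replacement core genes and 613 for replacement linker genes. It was 7.39 for replication-dependent core, 4.65 for replication-dependent linker and 9.52 for testis variant genes. H3f3b had the highest level at 7607 per kb, followed by H2az1 at 2546 and H3f3a at 2405, whose library values overlapped. H2az2 stood at 1135 and H1f0 at 769. Of the replication-dependent core genes, H2bc4 was highest with 229 per kb, and no stem-loop was found in its annotated transcript. The 36 members with a stem-loop had a median of 7.87 per kb and the 31 without one, which include all 9 replacement genes, a median of 20.8 per kb. Within the replication-dependent core class the 31 genes with a stem-loop had a median of 7.61 per kb. The class median of 7.39 includes these genes, so it does not compare genes with and without a stem-loop.

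**Figure D2:**
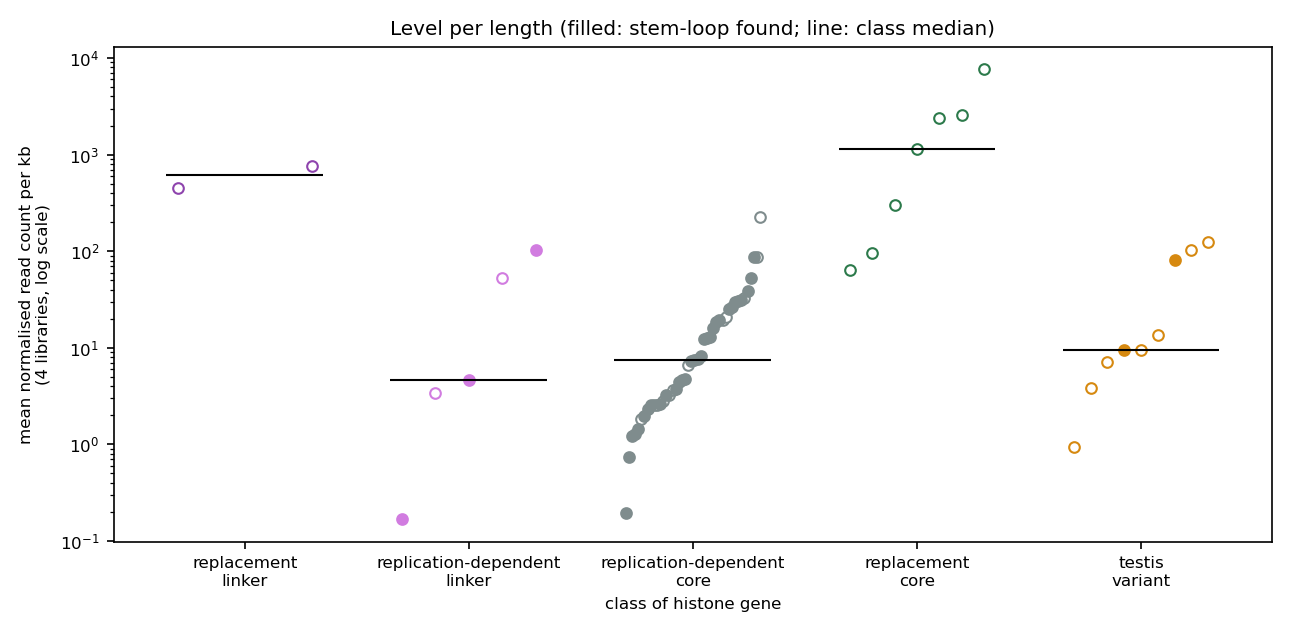
Mean normalised read count per kb over the 4 libraries (log axis), 1 point per histone gene, by class. Filled points have the stem-loop and lines are class medians, from 4.65 for replication-dependent linker genes to 1135 for replacement core genes.

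Linker histones had no called member, where 16.8% of all genes tested were called. In all 4 tested, both knockout libraries lay above both controls as deposited, as in 29.8% of all genes tested. The fitted values of H1f10 and H1f2 turned negative under Sertoli scaling (-0.064 and -0.11). That scaling sets the mean log level of the 15 Sertoli markers equal in all libraries and moves the median of all genes by -0.23. H1f0, which encodes H1.0, a replacement linker of slowly dividing and differentiated cells, had normalised counts of 1462 and 1428 in the controls and 1680 and 1750 in the knockouts. The fitted log2 difference was 0.25 (SE 0.082, Benjamini-Hochberg adjusted p from limma = 0.0787). The groups did not overlap, and the gene passed the threshold only when values were scaled to library totals (adjusted p = 0.0245). H1f10, the other replacement linker gene, had 510 and 536 in the controls and 627 and 548 in the knockouts (log2 fold change 0.16, limma Benjamini-Hochberg adjusted p = 0.403). Knockout 3 lay close to control 2 there.

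Of the replication-dependent linker genes, H1f2 had 147 and 161 in the controls and 167 in each knockout (log2 fold change 0.12, limma Benjamini-Hochberg adjusted p = 0.702). H1f1 had 36.8 and 32.7 against 40.1 and 47.1 (log2 fold change 0.32, limma Benjamini-Hochberg adjusted p = 0.56). The other members of this class were barely read. H1f3 had 1 or 2 reads per library, H1f5 had 1 to 6 and H1f4 had 6 to 14. Summed over its genes, the replacement linker class came to 1972 and 1964 in the controls and 2307 and 2298 in the knockouts, 117% of control. The replication-dependent linker class came to 193 and 209 against 220 and 227, 111% of control. Both ratios depend on the scaling. Under Sertoli scaling the log2 ratios of these sums went from 0.23 to -0.003 and from 0.16 to -0.08.

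Genes classed by symbol as replication-dependent core were mostly low and mostly not called, with 2 exceptions that fell. Of 44 members 13 were tested, at a median log2 change of 0.11, and 15.4% of the 13 were called beside 16.8% of all genes. The other 31 were too low. H2bc21, on chromosome 3, encodes the H2B variant H2BE, known from olfactory neurons, and had no stem-loop in its annotated transcript. It had normalised counts of 235 and 426 in the controls and 112 and 149 in the knockouts, a mean of 331 ± 136 falling to 130 ± 25.7 (SD, n = 2). Every knockout value lay below every control value, and control 2 stood well above control 1 (log2 difference 0.86), as the pachytene markers did. On the log2 scale it fell by 1.29 (SE 0.28, Benjamini-Hochberg adjusted p from limma = 0.0166), which left 39.5% of the control level. In the authors' deposited table its change is -1.34 (standard error 0.321, adjusted p 0.000464). Without control 2 the fitted value was -0.86 (limma Benjamini-Hochberg adjusted p = 0.187), and the call was also lost without knockout 1 (adjusted p = 0.111) and without knockout 3 (adjusted p = 0.0539).

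H2bc21 lies head to head with H2ac20, an H2A gene on the other strand. H2ac20 had 1 and 14 reads in the controls and 0 and 2 in the knockouts, too few to test, and again control 2 was the high library. The promoter window of H2ac20 in RefSeq (GRCm38.p6, chr3:96220831-96221130, minus strand) reaches across the gap to the start of H2bc21. It is printed because both genes face it, 5′ to 3′ on the strand of H2ac20, with matches to the octamer core TTTGCAT, to CCAAT and to TATAAA on either strand in capitals.
H2ac20: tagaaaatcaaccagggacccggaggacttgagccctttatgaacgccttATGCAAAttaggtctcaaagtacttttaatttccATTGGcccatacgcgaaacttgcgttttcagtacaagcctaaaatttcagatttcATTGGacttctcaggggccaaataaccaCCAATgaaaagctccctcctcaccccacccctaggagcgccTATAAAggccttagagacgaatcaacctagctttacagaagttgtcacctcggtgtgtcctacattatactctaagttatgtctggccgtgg

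H2aw, an H2A gene on chromosome 11, had normalised counts of 140 and 144 in the controls and 84.2 and 80.9 in the knockouts. Values within each group lay close together and the groups were far apart. On the log2 scale it fell by 0.77 (SE 0.21, Benjamini-Hochberg adjusted p from limma = 0.0385), and 58.3% of the control level remained. The call was lost when any library was left out (adjusted p from 0.143 to 0.246), and the authors' deposited table gives H2aw a log2 fold change of -0.78 with an adjusted p of 0.147. In GENCODE M21 the gene span of H2aw overlaps that of Trim17 on the same strand. Whether their exons overlap was not checked, so reads there may belong to either gene. Trim17 had 52.4 and 71.4 in the controls and 35.1 and 20.5 in the knockouts (log2 fold change -1.16, limma Benjamini-Hochberg adjusted p = 0.0726).

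The remaining tested genes of the class had adjusted p-values from 0.132 to 0.979 (limma, Benjamini-Hochberg). H2bc4, the most highly read of them, had 291 and 268 in the controls and 268 and 231 in the knockouts (log2 fold change -0.17). The largest fitted rise was that of H4c3, with 18.4 and 11.9 against 46.1 and 25.6 (log2 fold change 1.16, SE 0.47, limma Benjamini-Hochberg adjusted p = 0.132). H4c9 had 50.4 and 50.6 against 75.2 and 74.8 (log2 fold change 0.56, limma Benjamini-Hochberg adjusted p = 0.191). In both H4 genes the groups did not overlap. H2bc6 had 0.97 and 17.8 in the controls and 12 and 10.2 in the knockouts, so its direction turned on a single control library. Its gene span overlaps that of H1f4 on the same strand. H2bu1-ps, typed protein-coding in the table despite its pseudogene symbol, had 21.3 and 17.8 against 9.02 and 12.3 (log2 fold change -0.83, limma Benjamini-Hochberg adjusted p = 0.289).

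Summed by family, replication-dependent core genes moved in different directions, given as a description without a test since 2 against 2 libraries allow no permutation p below 0.333. The 12 H4 genes summed to 114 and 116 in the controls and to 208 and 163 in the knockouts, 161% of control. The 10 H3 genes summed to 64.0 and 69.4 against 71.2 and 70.7. The 14 H2B genes summed to 603 and 822 against 481 and 484, which is 67.7% of control. Most of that sum was H2bc21 and H2bc4. Its fall was mostly that of the called H2bc21, whose mean went from 331 to 130. The mean of H2bc4 went from 279 to 249. No stem-loop was found in the annotated transcript of H2bc21 or of H2bc4. The 8 H2A genes summed to 145 and 161 against 90.2 and 91.2, nearly all of it H2aw. The H4 sum stayed higher in the knockouts under each scaling and with any library left out (log2 ratio 0.46 to 0.86), while the H3 sum turned to a log2 ratio of -0.14 under Sertoli scaling. The 31 untested genes summed to 83.4 and 128 in the controls and 130 and 115 in the knockouts, and control 2 lay inside the knockout range. Among them H4c1 had no read in either control, which allows up to 3 reads over the group, and 7 and 3 reads in the knockouts.

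Replication-dependent genes often share sequence, which limits single-gene values. In the replication-dependent core class the median share of 50-base windows found in another gene's transcripts was 45.6%, and 17 of the 44 genes shared 50% or more. H2bc21 shared none, H4c9 shared 28.9% and H3c15 shared 63.5%. The sources used here do not say how the authors counted reads that fit several genes.

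Replacement core histones were the most abundant members, and 1 of the 7 fell and 1 rose. That is 28.6% of a small class, beside 16.8% of all genes tested. H3f3b and H3f3a encode the same protein, H3.3, which is laid down outside replication. H3f3b had normalised counts of 25014 and 24238 in the controls and 21362 and 19941 in the knockouts. The groups did not overlap, and 83.9% of the control level remained (log2 fold change -0.25, SE 0.063, limma Benjamini-Hochberg adjusted p = 0.0271). H3f3a had 8941 and 8602 against 8195 and 7969 (log2 fold change -0.12, limma Benjamini-Hochberg adjusted p = 0.251). The call of H3f3b was lost when any library was left out (adjusted p from 0.0531 to 0.251), with edgeR on the recovered reads (adjusted p = 0.0796) and with library totals (adjusted p = 0.158). The authors' deposited table gives H3f3b an adjusted p of 0.0118.

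H2az1 and H2az2 encode H2A.Z, a variant found around transcription start sites. H2az2 had normalised counts of 1709 and 1556 in the controls and 2117 and 2034 in the knockouts, and both knockouts lay above both controls. Its level rose to 127% of control (log2 fold change 0.35, SE 0.086, limma Benjamini-Hochberg adjusted p = 0.0268). This call held without control 1 and ended without control 2 (0.153), knockout 1 (0.17) or knockout 3 (0.132) and under Sertoli scaling (0.356), each an adjusted p. H2az1 had 4336 and 4951 against 4623 and 4174 (log2 fold change -0.08, limma Benjamini-Hochberg adjusted p = 0.607). Its groups overlapped.

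Shares within a pair do not depend on the scaling of a library. Of the reads on both H2A.Z genes, H2az2 took 28.3% (95% Wilson interval 27.2 to 29.4) and 23.9% (22.9 to 25.0) in the controls. In the knockouts it took 31.4% (30.3 to 32.5) and 32.8% (31.6 to 34). Each knockout interval lay above each control interval, and the controls also differed from each other. H3f3b took 73.7% and 73.8% of the reads on both H3.3 genes in the controls and 72.3% and 71.4% in the knockouts. Macroh2a2 took 8.92% and 6.88% of macroH2A reads in the controls and 10.4% and 11.3% in the knockouts. Its gene span overlaps that of Aifm2 on the other strand. H1f0 took 74.1% and 72.7% of the reads on H1f0 and H1f10 in the controls and 72.8% and 76.1% in the knockouts, with overlapping groups. These intervals cover counting error only, and the smallest two-sided exact permutation p for 2 against 2 libraries is 0.333.

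**Figure D3:**
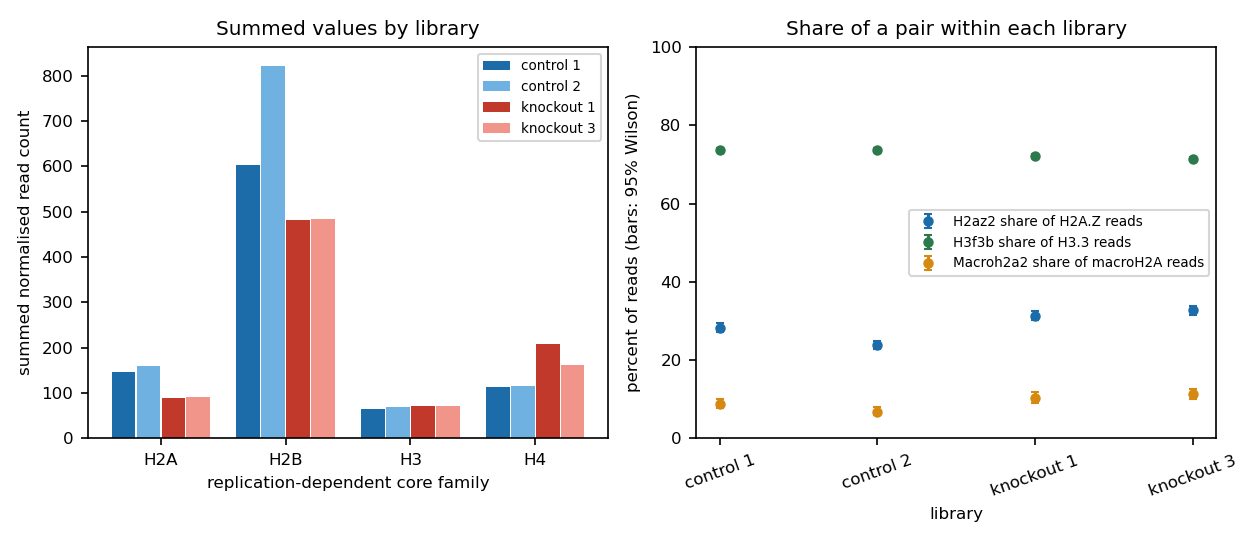
Left, summed normalised read counts of replication-dependent core genes by family, 1 bar per library; the H4 sum is 114 and 116 in controls and 208 and 163 in knockouts. Right, the share of reads that 1 gene of a pair takes in each library with 95% Wilson intervals; H2az2 takes 23.9% to 28.3% in controls and 31.4% to 32.8% in knockouts.

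The macroH2A genes encode large H2A variants found on silent chromatin, including the sex chromosomes of spermatocytes. Macroh2a1 had 2058 and 2309 in the controls and 1893 in each knockout (log2 fold change -0.20, limma Benjamini-Hochberg adjusted p = 0.151). Macroh2a2 had 202 and 171 against 219 and 242 (log2 fold change 0.31, limma Benjamini-Hochberg adjusted p = 0.269). Both macroH2A genes had groups that did not overlap, in opposite directions, and neither passed the test. Aifm2, which overlaps Macroh2a2 on the other strand, had 430 and 536 against 358 and 334. Its log2 fold change was -0.47 (limma Benjamini-Hochberg adjusted p = 0.0619). Without a stated strand setting, reads there cannot be told apart. H2aj, which encodes H2A.J, had 129 and 77.3 against 136 and 122 (log2 fold change 0.36, limma Benjamini-Hochberg adjusted p = 0.416).

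Testis variants had no called gene, where 16.8% of all genes tested were called. In the 3 of 9 that could be tested, both knockouts lay above both controls, as in 29.8% of all genes tested. The median log2 fold change was 0.57 over these 3 and 0.012 over all 9 with no filter. H3f4, the testis H3 gene, had normalised counts of 39.8 and 29.7 in the controls and 80.2 and 53.3 in the knockouts (log2 fold change 0.91, SE 0.34, limma Benjamini-Hochberg adjusted p = 0.112). H2bc1, which encodes TH2B, had 30.1 and 31.7 against 58.1 and 36.9 (log2 fold change 0.57, limma Benjamini-Hochberg adjusted p = 0.325). H2bw2, an X-linked H2B gene, had 57.2 and 83.3 against 103 and 94.2 (log2 fold change 0.51, limma Benjamini-Hochberg adjusted p = 0.245). In each of the 3 genes knockout 1 was the highest library. The gene span of H3f4 also overlaps that of Trim17, whose fitted value had the opposite sign. No 50-base window of the H3f4 transcript was found in another gene's transcripts.

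The other 6 testis variants were too low to test, and their reads are given as counted. H1f6 encodes H1t, the linker histone of pachytene spermatocytes. It had 15 and 11 reads in the controls and 7 and 2 in the knockouts, with no overlap, and the authors' deposited table gives it a log2 fold change of -1.49 with an adjusted p of 0.633. H1f9, a spermatid linker gene, had 2 and 22 against 4 and 5. Its gene span overlaps that of Sgca on the other strand, and Sgca itself fell (log2 fold change -1.74, limma Benjamini-Hochberg adjusted p = 0.0138, lost without control 2 or without knockout 3). H1f8, the oocyte linker gene, had 9 and 5 against 11 and 9.

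Core variants of the germ line were rarer still. H2ab3 had 3 and 9 reads against 4 and 3, and H2al1m had 1 read in control 2 and 1 in knockout 3. H2ac1, which encodes TH2A, had 6 reads in control 2 and none in the other libraries, so a group of 0 here allows up to 3 reads. H2ac1 and H2bc1 are divergent neighbours, yet their reads differed widely. The promoter window of H2bc1 (RefSeq, GRCm38.p6, chr13:23934107-23934406, minus strand) is shown because it holds matches to the same 3 motifs as that of H2ac20, again in capitals.
H2bc1: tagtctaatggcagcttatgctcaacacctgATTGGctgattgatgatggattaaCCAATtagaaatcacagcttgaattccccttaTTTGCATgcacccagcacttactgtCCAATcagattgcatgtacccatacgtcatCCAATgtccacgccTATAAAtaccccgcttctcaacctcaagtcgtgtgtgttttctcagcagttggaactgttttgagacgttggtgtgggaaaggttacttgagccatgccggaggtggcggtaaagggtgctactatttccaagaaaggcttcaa

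RefSeq promoter windows of 300 bases were found for 59 members (60 windows). CCAAT was present on either strand in 80% of them, against 37.4% of all 32851 windows. TATAAA was present in 51.7% against 13.6%, and the octamer core TTTGCAT in 25% against 4.63%. The heat shock element, searched as GAANNTTC or TTCNNGAA, was present in 13.3% of members' windows and in 15.1% of all windows. Its 8 windows were those of H3f4 and of 7 replication-dependent core genes, of which H2bc11 was the only one tested. No window of a linker or replacement core gene had a match. These are letter matches and not binding sites. Windows of some divergent neighbours overlap, such as H2ac11 with H2bc11 and H2ac8 with H2bc8, so 1 site can count in both. The 8 heat shock element windows include those of both these pairs. The 60 windows are therefore not all separate stretches of DNA.

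**Figure D4:**
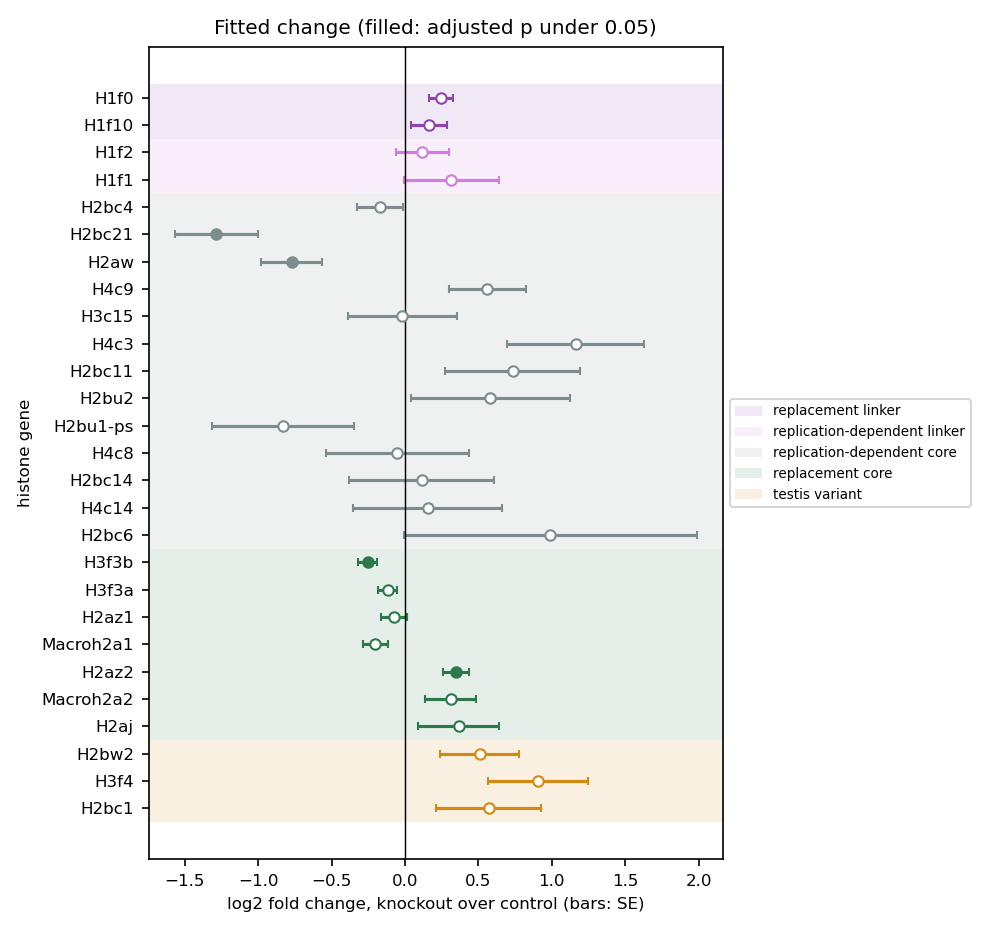
Fitted log2 change (knockout over control) and its SE from limma for the 27 tested histone genes, by class; filled points have an adjusted p under 0.05. H2bc21 (-1.29) and H2aw (-0.77) lie far left, H3f3b (-0.25) and H2az2 (0.35) have narrow errors, and the points of all linker genes and testis variants lie right of 0 without passing the test; H1f10 and H1f2 move left of 0 under Sertoli scaling.

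Genes that make and process histone messages changed in both directions. Of 21 tested, 4 fell and 1 rose (median log2 change -0.03), which is 23.8% beside 16.8% of all genes. The count of falls was 1 without control 2, 2 without knockout 3 and 10 under Sertoli scaling, where none rose. Under that scaling 4428 of all 17480 genes tested fell and 70 rose. With the values as deposited, Ncbp1, a subunit of the nuclear cap-binding complex, fell by 0.78 on the log2 scale (limma Benjamini-Hochberg adjusted p = 0.0022). Srrt, its partner ARS2, fell by 0.49 (adjusted p = 0.00341 by the same limma test), lost without control 2. E2f1, an activator of S-phase genes, rose by 0.49 (limma Benjamini-Hochberg adjusted p = 0.0161). Cstf2t, a testis form of a cleavage factor, fell by 0.43, and the last of the 4, Slbp, which binds the stem-loop, fell by 0.29 (limma Benjamini-Hochberg adjusted p = 0.0405). The calls of E2f1 and Cstf2t each held without knockout 1 and were lost without control 2 or knockout 3, that of E2f1 also without control 1, and that of Slbp was lost without any of the 4 libraries.

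Histone chaperones and deposition factors mostly had negative values. Of 33 tested, 10 fell and 1 rose (median log2 change -0.19). Called were 33.3% of the list, beside 16.8% of all genes. Znhit1 (log2 fold change -0.73), Ruvbl2 (-0.71) and Ep400 (-0.53), subunits of chromatin remodelling complexes, fell with limma Benjamini-Hochberg adjusted p-values of 0.00972, 0.00242 and 0.00115. Other remodelling and H2A.Z genes of the list were not called, with log2 fold changes of 0.12 for Vps72, 0.03 for Srcap, 0.15 for Anp32e and -0.24 for Ruvbl1. Chaf1a, the large subunit of the replication-coupled assembly factor CAF-1, fell by 0.62 on the log2 scale (limma Benjamini-Hochberg adjusted p = 0.00713). Mcm2, a helicase subunit that also binds H3 and H4, was the single gene that rose (log2 fold change 0.37, limma Benjamini-Hochberg adjusted p = 0.0195). Among these 5 called genes, leaving out 1 library at a time ended every call but that of Ep400. The count of falls was lower when any 1 library was left out. It was 21 under Sertoli scaling, where none rose and 4428 of all 17480 genes tested fell.

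Genes of histone removal and protamine packaging included the largest falls of the histone-related lists. Of 18 tested, 4 fell and none rose, at a median log2 change of -0.16 beside 0.01 for all genes. That is 22.2% called, beside 16.8% of all genes. Phf7, a reader of histone H3 methylation in germ cells, fell by 2.09 on the log2 scale and Hspa2, the testis HSP70 that is also among the pachytene markers, fell by 1.39. Brdt, the testis bromodomain protein that binds acetylated histones, fell by 0.89. For these 3 genes limma gave Benjamini-Hochberg adjusted p-values of 0.000593, 0.000293 and 0.000757, and their calls held without each library in turn. Psme4, a proteasome activator of acetylated histone breakdown, fell by 0.68 (limma Benjamini-Hochberg adjusted p = 0.00761), lost without either knockout library.

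Of the 27 S-phase genes tested, 1 fell and none rose, 3.7% beside 16.8% of all genes, and the median log2 fold change was 0.07. Mcm2 and E2f1, which rose, were counted in the lists above and not in this list. The gene that fell was Pcna, the replication clamp (log2 fold change -0.47, limma Benjamini-Hochberg adjusted p = 0.00474), lost without control 2 or without knockout 3. Under Sertoli scaling 7 of the list fell, as did 4428 of all 17480 genes tested.

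**Figure D5:**
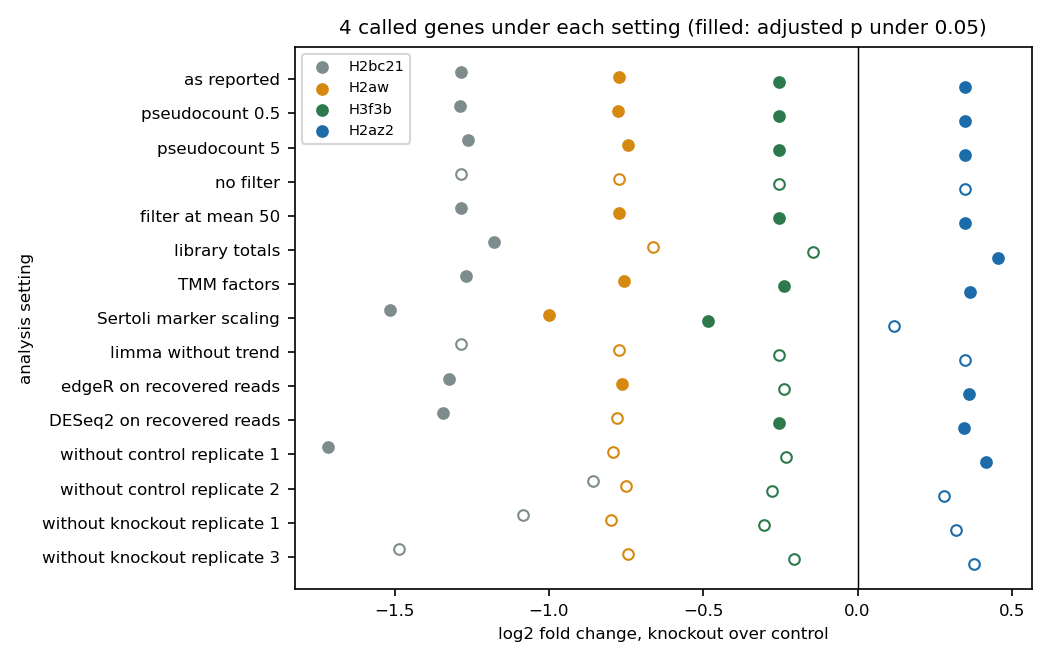
Log2 fold change of H2bc21, H2aw, H3f3b and H2az2 under each analysis setting, filled where the adjusted p was under 0.05. No value changes sign, while each of the 4 calls is lost under several settings, including no filter on low values and limma without trend.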

How the data were processed

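Whole-testis RNA-seq was analysed in 4 libraries (2 control, 2 knockout), and control 3 and knockout 2 were not analysed here. Build mm39, cutadapt, Bowtie2, featureCounts and DESeq2 are named in the submitters' processing notes. The sources used here give no versions, strand setting, annotation or poly(A) selection. The deposited signal per library is a read count divided by 1 size factor, and 100% of values were whole reads after division by the smallest step (within 1e-06). The authors' deposited table also holds, per the file headers, a mean, log2 fold changes with standard errors, a test score and p-values. Their mean equals that of these 4 libraries.

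Limma 3.58.1 (R 4.3.3) was fitted on log2(value + 1) with a trend over 17480 genes with a mean of at least 10, and p-values were Benjamini-Hochberg adjusted over all of them. Fold changes on that scale understate low genes. Prior and residual degrees of freedom were 6.3 and 2, so p-values rest largely on pooled variance. On simulated data 26.5%, 62% and 88.1% of genes changed 1.5-fold, 2-fold and 4-fold were recovered, with 1 false call of 17191. The simulation took each gene's spread from the dispersion trend alone and changed 200 genes, where 2939 were called in the data. Its rates need not hold for these libraries. EdgeR 4.0.16 and DESeq2 1.42.0 on recovered reads, other scalings, filters and pseudocounts, and leaving out each library were alternatives.

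The members, classes, gene lists and markers were chosen with earlier results of these data known. Named genes were all tested linker genes, all testis variants with a read, every called member, the 3 highest and the most changed genes of the other classes, and up to 4 called genes per list. Genes outside that rule (Slbp, Mcm2, Vps72, Srcap, Anp32e, Ruvbl1, Ddx4, H4c1, H2ac20, untested linkers, overlapping genes) were chosen after their values were seen. Of the other marker lists, early prophase had 2 of 9 lower and red blood 2 of 3 higher, beside 13.5% lower and 3.28% higher of all genes. The spermatid (3 tested), Leydig (6), myoid and stroma (6), macrophage (5) and endothelial (4) lists had none called. Sequences came from GENCODE M21 transcripts and RefSeq promoters of GRCm38, with no coordinates converted.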

Additional observations from a re-analysis of the deposited data

How the results depend on the processing

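No paired analysis was possible because the libraries analysed share only replicate number 1. Settings without control 3 and without knockout 2 were not run, since those libraries were not analysed here. The 3 falls and 1 rise held with pseudocounts of 0.5 and 5, a filter at a mean of 50 and TMM factors. Falls and rises numbered 0 and 0 with no filter and without trend, 1 and 2 with library totals, 5 and 0 with Sertoli scaling, 2 and 1 with edgeR and with DESeq2, 0 to 1 falls and 0 to 1 rises with a library left out, the rise without control 2 being H2bc6. Counts over all genes tested also moved with the setting. Falls and rises there numbered 815 and 37 of 29333 genes with no filter. Of 17480 genes they numbered 40 and 0 without trend, 2007 and 1511 with library totals, and 4428 and 70 with Sertoli scaling. With edgeR they numbered 2185 and 522 of 17773 genes, and with DESeq2 2293 and 468 of 29333. An unadjusted limma p under 0.05 was held by 10 of 67 members with no filter and 8 of 27 without trend. The share of all genes under that unadjusted threshold is not given here. Of the 27 tested members, 18 kept their direction under each alternative that gave them a value (6 of them had none with the filter at 50). Class medians moved as follows. A filter changes which genes a median covers and leaves the limma value of each gene as it was. Replacement linker genes had 0.31 with library totals and -0.023 with Sertoli scaling. Replication-dependent linker genes had 0.32 over 5 genes with no filter, 0.32 over 2 with library totals and 0.33 over 5 with DESeq2. They had 0.12 over 1 gene with a filter at 50, 0.13 over 3 with edgeR and -0.0079 over 2 with Sertoli scaling. Replication-dependent core genes had -0.47 over the 4 genes left with a filter at 50. Over the 13 genes of the reported fit they had -0.10 with Sertoli scaling and -0.10 to 0.19 with a library left out. Replacement core genes had 0.032 with library totals and -0.31 with Sertoli scaling. Testis variants had 0.012 with no filter and 0.047 with DESeq2, both over 9 genes where the reported fit had 3. Direction turned under Sertoli scaling for H1f10 (-0.064), H1f2 (-0.11), H2bc14 (-0.10) and H4c14 (-0.057). With library totals it turned for H2az1 (0.032), H3c15 (0.086) and H4c8 (0.049), and with edgeR for H3c15 (0.014). With a library left out, values ran from -0.00053 to 0.73 for H2aj, -0.17 to 0.019 for H2az1, -0.12 to 0.35 for H2bc14, -0.64 (without control 1) to 2.62 (without control 2) for H2bc6, -0.26 to 0.22 for H3c15 and -0.21 to 0.10 for H4c8. Why values moved with the scaling, the method or a library left out was not tested. Members under a mean of 10 were not tested, and most of those hold under 20 reads per library.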

Other observations

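A processed pseudogene of the histone family lay outside the rule and fell further than any tested member. Macroh2a3, on chromosome 15, had normalised read counts of 30.1 and 81.3 in the controls and 3.01 and 6.15 in the knockouts (log2 fold change -3.24, limma Benjamini-Hochberg adjusted p = 0.00828, and 0.0628 without control 2). Control 2 was its highest library. H3f3a-ps1, an H3.3 pseudogene on the X chromosome, had 55.3 and 60.5 against 50.1 and 44.0, which did not pass the test (limma Benjamini-Hochberg adjusted p = 0.539).

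Some long noncoding RNAs overlap histone genes on the other strand, and without a stated strand setting their reads cannot be told apart from those of the histone gene. Gm5577, opposite H1f10, had 169 and 168 in the controls and 97.2 and 67.6 in the knockouts (log2 fold change -1.04, limma Benjamini-Hochberg adjusted p = 0.0196, kept only without knockout 1 among the fits that left out a library). H1f10 itself had a positive value. Gm49544, opposite H1f0, had 20.4 and 32.7 in the controls and 14.0 and 1.02 in the knockouts. Its log2 fold change was -2.28 (limma Benjamini-Hochberg adjusted p = 0.124). H3f3aos, opposite H3f3a, had 75.6 and 82.3 against 93.2 and 120 (log2 fold change 0.42, limma Benjamini-Hochberg adjusted p = 0.288). H2ax, left out by the rule, had 2478 and 2239 in the controls and 2023 and 1877 in the knockouts.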
